A study of Mus musculus with 24 samples.

Results

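The elastic fibre and microfibril genes described here are Eln, Fbln1, Fbln2, Fbln5, Efemp1, Efemp2, Mfap2, Mfap4, Mfap5 and Thsd4, measured in sorted mouse colon fibroblasts. A gene was taken as measured where a probe set was annotated to exactly its symbol, and the brightest probe set was to stand for a gene with several. Of these 10 genes 9 had a probe set, each of them 1, among 30827 genes in all. The level of Efemp2 was not analysed here, and it enters only through its promoter windows. The first 9 genes were listed for their family, whereas Thsd4 was chosen by its measured difference, a lower level after loss of Indian hedgehog on these same arrays. Its values below are therefore a description and carry no test, and they support nothing about the other 8 measured genes.

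Elastic fibres give a tissue stretch and recoil. Their core is elastin, secreted as the soluble monomer tropoelastin and cross-linked by lysyl oxidases, and it forms on a scaffold of microfibrils built from fibrillin. Fibulins carry tropoelastin to the cross-linking enzymes and to the scaffold, while microfibril-associated proteins bind fibrillin. Fibroblasts and smooth muscle cells are the usual sources in the gut wall, where the fibres run through the submucosa and around vessels.

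The study used 24 Affymetrix Mouse Transcriptome Array 1.0 chips, 1 per sample, of colon cells sorted for gp38 (podoplanin) and against Epcam, CD45 and CD31. All mice carried the Villincre-ERT2-ZsGreen alleles, an inducible Cre driven by the promoter of villin, a gene of the intestinal epithelium. The 7 WT arrays came from IhhWT-ApcWT mice, the 8 ApcKO arrays from IhhWT-ApcKO mice and the 9 IhhKO_ApcKO arrays from IhhKO-ApcKO mice. Apc holds back Wnt signalling, and Ihh, Indian hedgehog, is a ligand that the epithelium sends to the fibroblasts. The deletions were thus directed at the epithelium and not at the fibroblasts sorted. Epithelial markers were still measured in the sorted samples, as given below. Ages, the time after induction and whether each array stands for a separate mouse were not given, so p-values measure the spread between these samples, which may be technical. Values are RMA log2 values, on which a step of 1 is a doubling, and the number of arrays limits the precision. A level is compared only with the same gene on other arrays, never with another gene.

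The gate and the genotype were checked before the genes of interest. General fibroblast markers averaged between 10.62 and 11.29 per array, and epithelial markers between 5.06 and 8.10, with Car1, a carbonic anhydrase of colon surface cells, at group means of 9.32, 10.07 and 8.76 in WT, ApcKO and IhhKO_ApcKO. Gli1, a transcription factor that Hedgehog signalling switches on, fell from 8.22 ± 0.14 (SD, n = 8) in ApcKO to 6.92 ± 0.42 (SD, n = 9) in IhhKO_ApcKO, a log2 difference of -1.31 (SE 0.126, limma adjusted p = 4.03e-06). Array B9, labelled IhhKO_ApcKO, went against its label, with Gli1 at 7.99 while the next highest array of its group was at 7.05. Its Ptch1, a Hedgehog receptor and target, was at 9.53 and its Hhip, a Hedgehog-binding target, at 8.96, both within the range of the Ihh-intact arrays. Array C9 of the same group also stood apart. It had the highest antigenomic background (median 3.15, against 2.68 to 2.92 on the others) and the highest mean of the blood endothelial markers (6.39). Its means of the epithelial (8.10) and leukocyte (5.39) markers were also the highest, but close to 8.09 on A9 and 5.34 on B9. Where limma weighted the arrays, C9 received the lowest weight, 0.262, followed by 0.476 for A9, 0.514 for A2 and 0.652 for B9. For the genes described here, differences of IhhKO_ApcKO from ApcKO that rest on B9 or C9 are given with and without them. The marker lists were not compared again without these arrays.

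The promoters of Thsd4 and Fbln5 are shown because both genes had their lowest mean in IhhKO_ApcKO and varied together between arrays, and Hedgehog signalling ends in GLI factors that bind DNA. RefSeq sequences on GRCm38.p6 covered 7 of the 10 genes in 13 windows, each running from 250 bases before to 50 after an annotated start. The 250 bases before the start are printed 5′ to 3′ in lower case, with the GLI core in capitals where it occurs. The windows of Thsd4 shown are chr9:60511036-60511285 (promoter 1) and chr9:60141221-60141470 (promoter 2), and those of Fbln5 are chr12:101819120-101819369 (promoter 1) and chr12:101818485-101818734 (promoter 2), all on the minus strand.
Thsd4 promoter 1: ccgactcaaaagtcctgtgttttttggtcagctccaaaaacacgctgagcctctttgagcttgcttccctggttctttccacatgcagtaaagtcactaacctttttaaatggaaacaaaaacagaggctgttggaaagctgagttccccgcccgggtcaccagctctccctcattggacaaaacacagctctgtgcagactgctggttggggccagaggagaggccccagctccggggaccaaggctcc
Thsd4 promoter 2: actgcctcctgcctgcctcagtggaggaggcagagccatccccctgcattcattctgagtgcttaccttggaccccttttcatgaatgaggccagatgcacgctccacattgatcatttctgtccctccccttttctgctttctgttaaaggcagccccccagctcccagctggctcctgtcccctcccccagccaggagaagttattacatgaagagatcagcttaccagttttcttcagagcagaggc
Fbln5 promoter 1: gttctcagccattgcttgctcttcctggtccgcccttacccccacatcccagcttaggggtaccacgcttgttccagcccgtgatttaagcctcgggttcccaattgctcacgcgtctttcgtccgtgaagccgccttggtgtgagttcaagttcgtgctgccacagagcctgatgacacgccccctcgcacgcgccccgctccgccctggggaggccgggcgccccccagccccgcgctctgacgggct
Fbln5 promoter 2: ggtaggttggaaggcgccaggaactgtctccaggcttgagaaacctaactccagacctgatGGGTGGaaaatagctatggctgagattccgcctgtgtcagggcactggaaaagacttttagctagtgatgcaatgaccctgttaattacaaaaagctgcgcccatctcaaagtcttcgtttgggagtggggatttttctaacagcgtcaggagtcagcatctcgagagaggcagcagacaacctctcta
The GLI consensus GACCACCCA, its core CCACCC, which lies within the consensus, and the TATA box TATAAA were searched on both strands. The consensus was in 0 of the 13 windows, beside 0.253% of all 32851 promoter windows of the same length. The core was in 8 of the 13, beside 31.5% of all windows, but the windows of Fbln1 and of Efemp2 overlap and share matches. Promoter 2 of Fbln5 held the core as GGGTGG, with its first base at position -189 from the annotated start, and both Thsd4 windows held none. The TATA box was in 0 of the 13 windows, beside 13.6% of all. A match is a run of letters and not a known site, and windows without one say nothing about GLI factors.

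**Figure D1:**
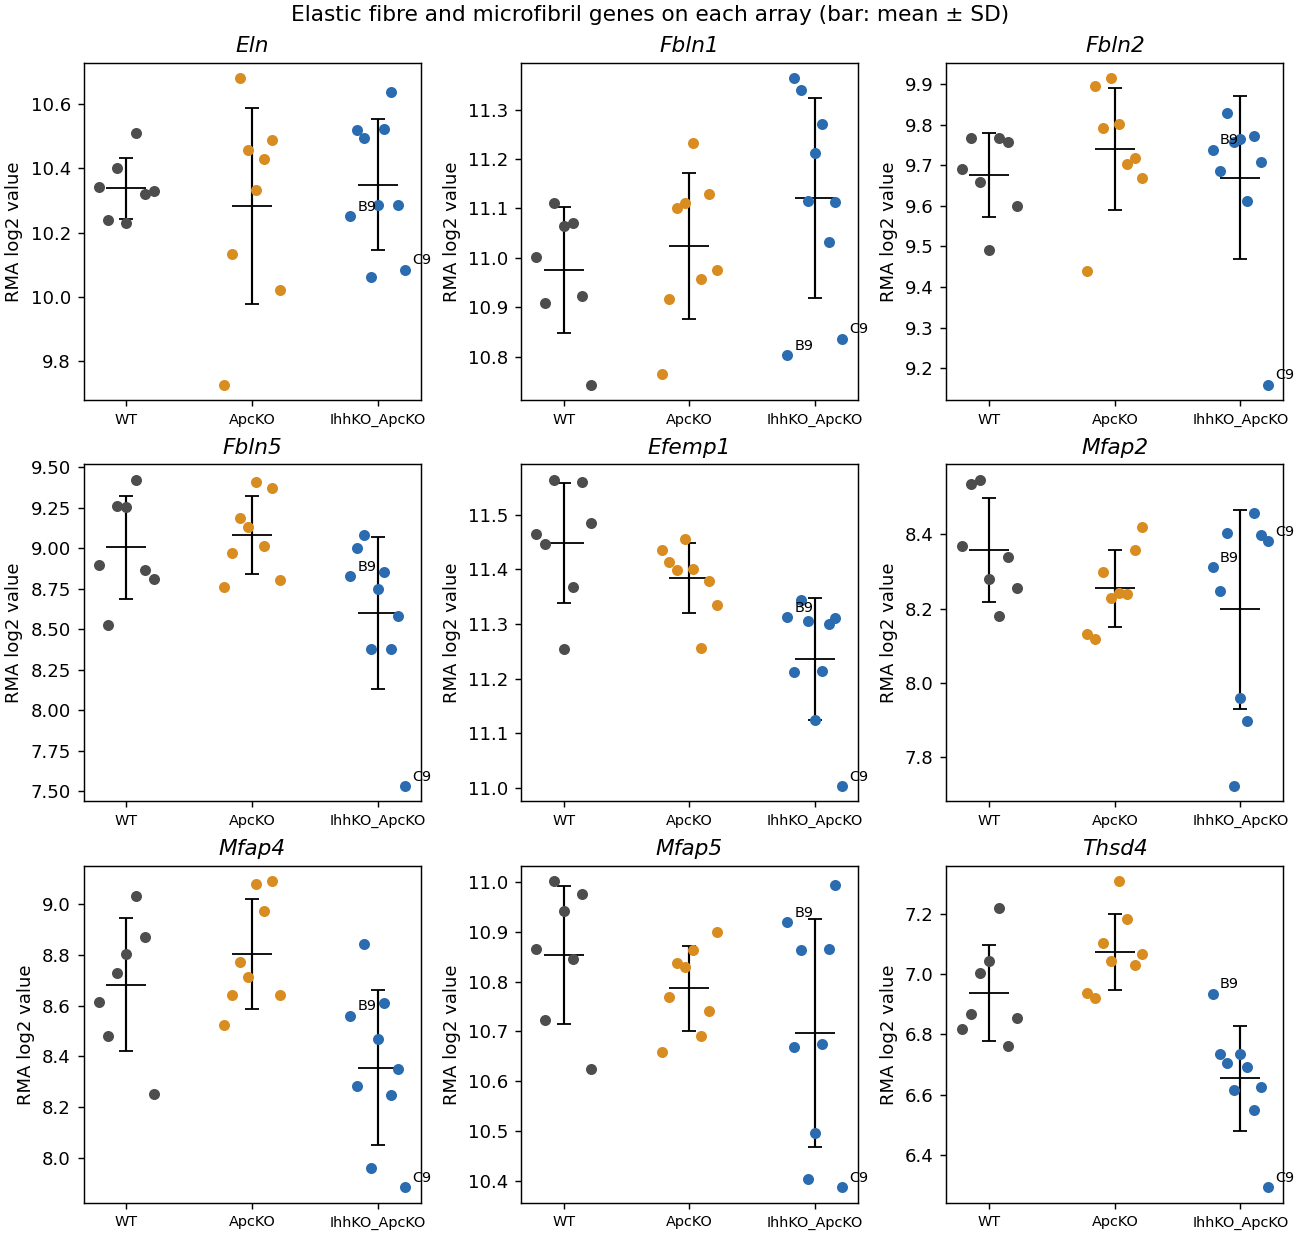
Each panel plots 1 gene, with RMA log2 values on the vertical axis, a point for each array, and the group mean with its SD as a bar; arrays B9 and C9 of IhhKO_ApcKO are labelled. For Fbln5, Mfap4 and Thsd4 most IhhKO_ApcKO arrays lie low, whereas for Eln the 3 groups share 1 range.

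Eln, which encodes tropoelastin itself, did not differ between the 3 genotypes beyond the spread of the arrays. WT ran from 10.23 over a median of 10.33 to 10.51, ApcKO from 9.73 over 10.38 to 10.68, and IhhKO_ApcKO from 10.06 over 10.29 to 10.64. The 3 ranges overlapped, and the 2 lowest values, 9.73 on A9 and 10.02, were both ApcKO arrays. In the order WT, ApcKO and IhhKO_ApcKO, which holds for all means below, they averaged 10.34 ± 0.10 (SD, n = 7), 10.28 ± 0.31 (SD, n = 8) and 10.35 ± 0.20 (SD, n = 9). IhhKO_ApcKO differed from ApcKO by 0.07 (SE 0.102, 95% interval -0.14 to 0.28, limma adjusted p = 1.00). Without A9 the difference was -0.01. With the letter of the sample code as a block, which sets A9 alone against WT, ApcKO minus WT was -0.61 (limma adjusted p = 0.193), against -0.05 (SE 0.109) over all ApcKO arrays.

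Fbln5, a fibulin that binds tropoelastin and cell-surface integrins and without which mice form disorganised elastic fibres, had the widest spread of the 9 genes. It ran from 8.52 over a median of 8.90 to 9.42 in WT and from 8.76 over 9.07 to 9.41 in ApcKO. In IhhKO_ApcKO it ran from 7.53 on C9 over 8.75 to 9.08 on C2. The ranges overlapped, with 8 of the 9 IhhKO_ApcKO arrays below the ApcKO mean and 5 below every ApcKO array. The means were 9.01 ± 0.32 (SD, n = 7), 9.08 ± 0.24 (SD, n = 8) and 8.60 ± 0.47 (SD, n = 9). IhhKO_ApcKO minus ApcKO was -0.48 (SE 0.163), or 1.40-fold lower, and it did not pass over all genes (limma adjusted p = 0.617, exact two-sided permutation p = 0.0104 for this gene alone). Without C9 the difference was -0.35, and without B9 and C9 together -0.36. In these bulk sorted samples fewer cells expressing a gene and less RNA per cell cannot be told apart.

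The other fibulins stayed closer to the levels of the Ihh-intact groups. Fbln1, a fibulin of elastic fibres and basement membranes, had means of 10.97 ± 0.13 (SD, n = 7), 11.02 ± 0.15 (SD, n = 8) and 11.12 ± 0.20 (SD, n = 9). Its highest arrays were IhhKO_ApcKO ones, up to 11.36 on C1, while B9 of the same group was low at 10.80. IhhKO_ApcKO minus ApcKO was 0.10 (SE 0.0786, limma adjusted p = 1.00). Without B9 and C9 it was 0.18. Fbln2, a fibulin that binds fibrillin at the border of core and scaffold, ran from 9.44 to 9.91 in ApcKO and from 9.16 to 9.83 in IhhKO_ApcKO. Its low end in IhhKO_ApcKO was C9 alone, as the next array was at 9.61. The difference was -0.07 (SE 0.0765, limma adjusted p = 1.00) and became -0.01 without C9.

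Efemp1, which encodes fibulin-3, a protein needed for elastic fibres of mouse fascia, had the narrowest spread of the 9 genes. WT ran from 11.25 over a median of 11.46 to 11.56, ApcKO from 11.26 over 11.40 to 11.46, and IhhKO_ApcKO from 11.003 on C9 over 11.30 to 11.34. All 9 IhhKO_ApcKO arrays lay below the mean of ApcKO and below that of WT, and 4 lay below every ApcKO array. The means were 11.45 ± 0.11 (SD, n = 7), 11.38 ± 0.06 (SD, n = 8) and 11.24 ± 0.11 (SD, n = 9). IhhKO_ApcKO minus ApcKO was -0.15 (SE 0.0515, limma adjusted p = 0.659, exact two-sided permutation p = 0.0023), and -0.12 without C9. IhhKO_ApcKO minus WT was -0.21 (SE 0.0534, limma adjusted p = 0.161, exact two-sided permutation p = 0.00184), the smallest adjusted p of the 8 genes tested in any contrast, and it did not pass.

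Mfap4, a glycoprotein of the microfibrils that binds tropoelastin and fibrillin, had low values on mostly the same IhhKO_ApcKO arrays as Fbln5. WT ran from 8.25 over a median of 8.73 to 9.03, ApcKO from 8.52 over 8.74 to 9.09, and IhhKO_ApcKO from 7.88 on C9 over 8.35 to 8.84 on C2. Of the 9 IhhKO_ApcKO arrays, 8 lay below the ApcKO mean and 6 below every ApcKO array, while the ranges overlapped through C2, B9 and C5. The means were 8.68 ± 0.26 (SD, n = 7), 8.80 ± 0.22 (SD, n = 8) and 8.36 ± 0.31 (SD, n = 9). IhhKO_ApcKO minus ApcKO was -0.45 (SE 0.121), or 1.36-fold lower, and did not pass over all genes (limma adjusted p = 0.278, exact two-sided permutation p = 0.00378). The difference was -0.39 without C9 and -0.41 without B9 and C9.

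Mfap2 and Mfap5 encode MAGP-1 and MAGP-2, a pair of small proteins that sit on fibrillin. Mfap2 averaged 8.36 ± 0.14 (SD, n = 7), 8.26 ± 0.10 (SD, n = 8) and 8.20 ± 0.27 (SD, n = 9). Its IhhKO_ApcKO arrays split, with 3 of them, C3 lowest at 7.72, below every ApcKO array, and the other 6 within or above the ApcKO range. IhhKO_ApcKO minus ApcKO was -0.06 (SE 0.0889, limma adjusted p = 1.00) and 0.0021 without C3. Mfap5 averaged 10.85 ± 0.14 (SD, n = 7), 10.79 ± 0.09 (SD, n = 8) and 10.70 ± 0.23 (SD, n = 9), and in IhhKO_ApcKO it ran from 10.39 on C9 to 10.99 on C7, beyond ApcKO at both ends. Its difference was -0.09 (SE 0.079, limma adjusted p = 1.00), and -0.05 without C9.

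Thsd4 encodes ADAMTSL6, a protein that binds fibrillin and promotes microfibril assembly in mice. WT ran from 6.76 over a median of 6.87 to 7.22, ApcKO from 6.92 over 7.05 to 7.31, and IhhKO_ApcKO from 6.29 on C9 over 6.69 to 6.94 on B9. All IhhKO_ApcKO arrays but B9 lay below every ApcKO array and every WT array. B9 is the array whose Gli1, Ptch1 and Hhip lay at the level of the Ihh-intact arrays, and the next highest array of its group had Thsd4 at 6.74. The means were 6.94 ± 0.16 (SD, n = 7), 7.07 ± 0.13 (SD, n = 8) and 6.65 ± 0.17 (SD, n = 9), and IhhKO_ApcKO minus ApcKO was -0.42 (SE 0.0741), or 1.34-fold lower. Since Thsd4 was chosen for this difference, no test is given. It was -0.37 without C9, -0.45 without B9 and -0.41 without both. Thsd4 lay below 8.21, the 95th percentile of the negative control probe sets, on all 24 arrays, but above their median of 4.65 on all 24. Mfap2 was above that 95th percentile on 18 arrays, Mfap4 on 21, Fbln5 on 23 and the other 5 genes on all 24.

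**Figure D2:**
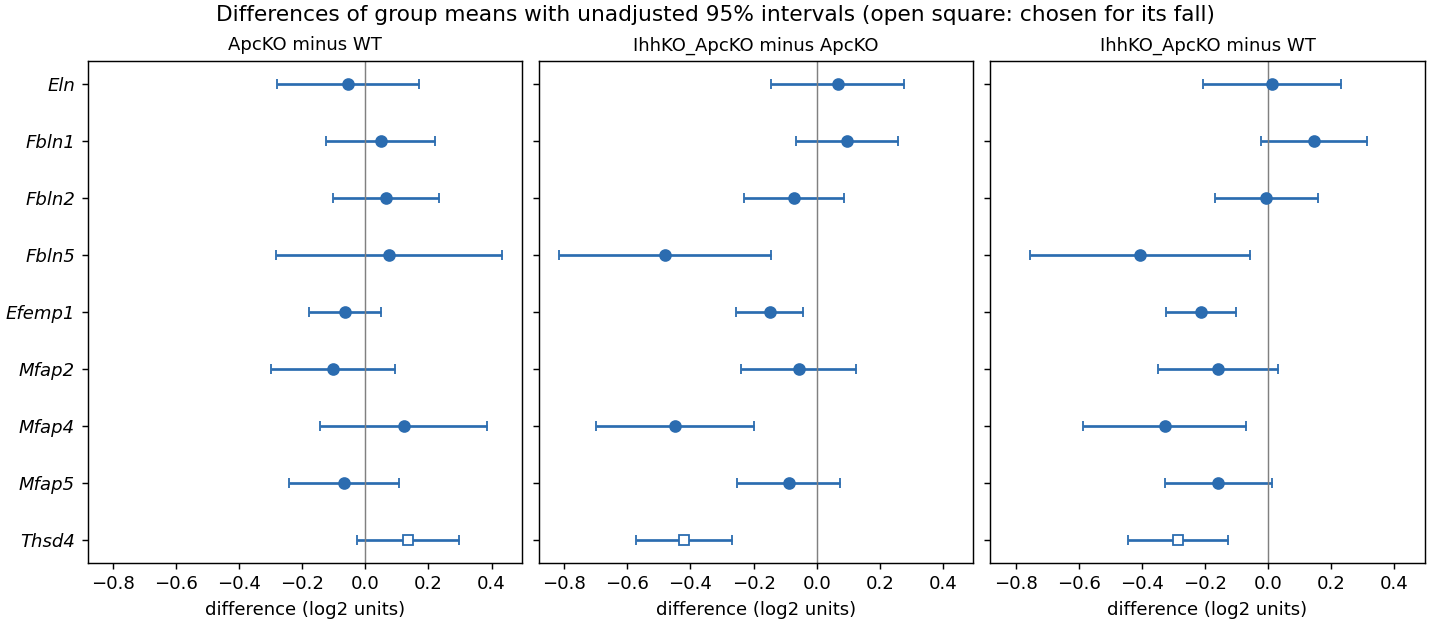
Differences of group means in log2 units on the horizontal axis with unadjusted 95% intervals, a row for each gene and a panel for each contrast; Thsd4, chosen for its lower level, is an open square. In the middle panel the intervals of Fbln5 (-0.82 to -0.15), Efemp1 (-0.25 to -0.04) and Mfap4 (-0.70 to -0.20) lie below 0, and those of Eln, Fbln1, Fbln2, Mfap2 and Mfap5 include 0.

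Counted over the 8 genes other than Thsd4, loss of Apc alone came with no difference beyond the spread between arrays. In ApcKO minus WT 0 of 8 passed the limma test at an adjusted p under 0.05, where 0% of all 30827 genes passed, and 0 of 8 reached an unadjusted p under 0.05, beside 4.41% of all genes. There were 4 lower and 4 higher genes, with a median difference of -0.0029 beside -0.0206 over all genes. The largest differences were those of Mfap4 at 0.12 (SE 0.129) and Mfap2 at -0.10 (SE 0.0947). Thsd4 differed by 0.14 (SE 0.0789), with 6 of 8 ApcKO arrays above the WT mean. All 10 epithelial markers were higher in ApcKO than in WT, with a median difference of 0.69, and 0 of them reached an unadjusted limma p under 0.05.

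With loss of Ihh on top of Apc loss, Fbln5, Mfap4 and Efemp1 had lower means, and whether this differed from the effect of Apc loss alone was not tested. In IhhKO_ApcKO minus ApcKO 0 of 8 genes passed over all genes, where 0.0454% of all genes passed, Gli1 among them. An unadjusted p under 0.05 was reached by 3 of 8, Fbln5, Efemp1 and Mfap4, all lower, beside 4.94% of all genes in either direction and 2.34% in the lower direction. Of the 8, 6 were lower and 2, Eln and Fbln1, higher, where 13373 of all 30827 genes were lower. The median difference of the 8 was -0.0807 beside 0.0107 over all genes. The set was chosen with results of these arrays known, so the share of 3 in 8 is a count and not evidence about the set. The same 3 genes reached an unadjusted limma p under 0.05 in IhhKO_ApcKO minus WT, all lower, beside 7.62% of all genes in either direction and 4.58% in the lower direction, and 0 of 8 passed after adjustment, where 0.0811% of all genes did. Both contrasts use the same 9 IhhKO_ApcKO arrays. In IhhKO_ApcKO minus WT Fbln5 differed by -0.41 (SE 0.169, limma adjusted p = 0.565, exact two-sided permutation p = 0.0612), Mfap4 by -0.33 (SE 0.125, limma adjusted p = 0.502, exact two-sided permutation p = 0.0417) and Thsd4 by -0.28 (SE 0.0768). The letter of the sample code runs almost along with genotype, so a fit with it as a block sets B9 alone against ApcKO. B9 had Gli1, Ptch1 and Hhip at the level of the Ihh-intact arrays, so this fit cannot check the difference with Ihh loss. In that fit IhhKO_ApcKO minus ApcKO was -0.30 for Fbln5, -0.29 for Mfap4, -0.07 for Efemp1 and -0.16 for Thsd4, and code letter and genotype can hardly be told apart.

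Markers of smooth muscle, cells that also make elastic fibres, were also lower in this contrast. Of 7 smooth muscle markers 6 were lower in IhhKO_ApcKO than in ApcKO, 5 of them at an unadjusted p under 0.05 and 0 after adjustment, with a median difference of -0.25. Their mean per array ran from 7.17 to 7.68 in WT and from 7.24 to 7.56 in ApcKO. In IhhKO_ApcKO this mean ran from 6.83 on C7 to 7.43 on B9, with C9 at 6.89. With that mean as a covariate, chosen after the data were seen, the difference was -0.27 for Fbln5, -0.34 for Mfap4, -0.13 for Efemp1 and -0.32 for Thsd4. The defining markers were measured above the negative control median on every array, Myh11 at group means of 7.70, 7.89 and 7.48 in WT, ApcKO and IhhKO_ApcKO. All group means of Myh11, Cnn1, Des, Synpo2 and Lmod1 lay below 8.21, the 95th percentile of the negative control probe sets. Those of Actg2 (8.223, 8.295 and 7.984) lay around it, and those of Smtn above it. The part of smooth muscle cells in the result was not tested further. Epithelial markers varied more, with 9 of 10 lower in IhhKO_ApcKO and means from 5.06 to 8.10 there. The 1 higher, Lgr5, lay below the negative control median on 23 arrays. With the epithelial mean as a covariate the differences were -0.53 for Fbln5, -0.46 for Mfap4, -0.15 for Efemp1 and -0.44 for Thsd4. General fibroblast markers were lower for 5 of 6, with a median of -0.0714, close to the -0.0807 of the 8 tested genes. All 6 measured markers of subepithelial PDGFRA-high fibroblasts were lower as well, with a median of -0.15. So were all 4 of lymphatic endothelium, with a median of -0.02. All 7 of leukocytes were higher, with a median of 0.09. Their mean per array in IhhKO_ApcKO ran from 4.81 on C6 to 5.39 on C9, with B9 at 5.34 and C7 at 5.25. Among the leukocyte markers, Ptprc lay below the negative control median on 24 arrays and Itgam on 18. Among the lymphatic ones, Mmrn1 lay below it on 24 arrays and Prox1 on 13, so the signs of these genes carry little. Of these lists 0 genes passed the adjusted threshold, and their part in the result was not tested.

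**Figure D3:**
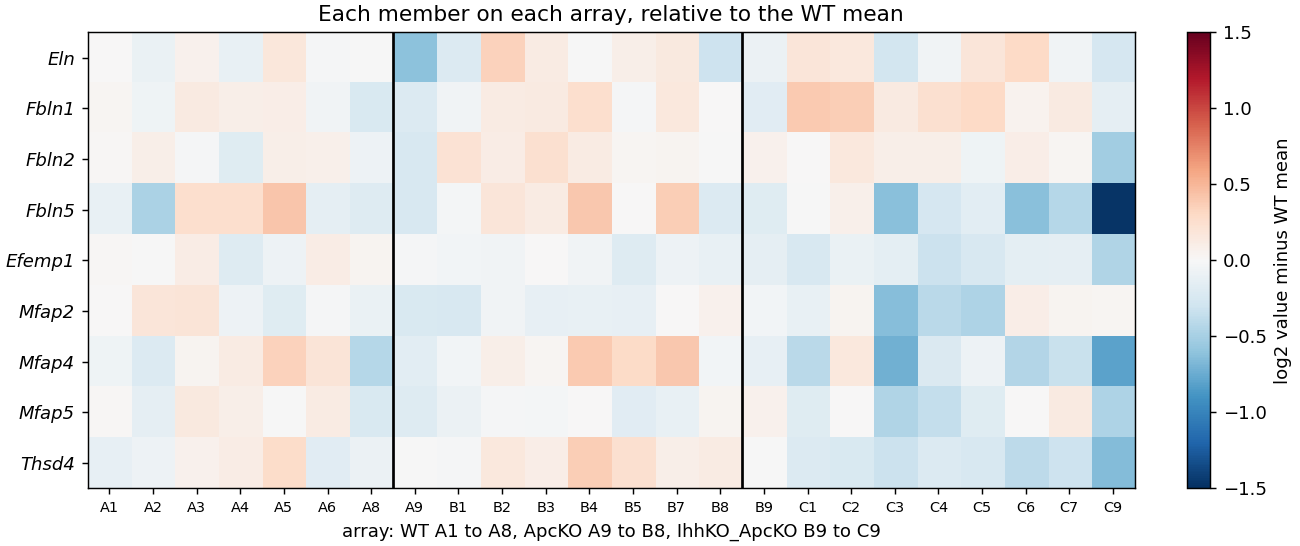
Rows are the 9 genes and columns the 24 arrays in the order WT, ApcKO and IhhKO_ApcKO, and colour gives the log2 value minus the WT mean of the same gene. C9 is dark blue for Fbln5 and pale to mid blue for most other genes, and C3 is blue for Fbln5, Mfap2 and Mfap4.

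Arrays of the same group that were high for 1 of these genes were often high for others. Over all 24 arrays this was clearest for Fbln5 with Mfap4, with Thsd4 and with Fbln1. After the group mean was subtracted, Fbln5 and Mfap4 had a Pearson correlation of 0.79 over the 24 arrays (Spearman 0.83), and 0.77 both without C9 and without B9 and C9. Fbln5 and Thsd4 had 0.79 (Spearman 0.72), which was 0.68 without C9 and 0.71 without both arrays. Mfap4 and Thsd4 had 0.66 (Spearman 0.62), which was 0.57 in either case. Fbln1 and Fbln5 had 0.72 (Spearman 0.80), which was 0.67 without C9 and 0.85 without both, although the group means of Fbln1 ran the other way. Fbln1 with Mfap4 and with Thsd4 had 0.58 and 0.43. These were 0.495 and 0.278 without C9, and 0.69 and 0.66 without both arrays. Which of these 4 genes were closest thus depended on B9 and C9. These are descriptions of 36 pairs over arrays that share platform, sort and scaling, and they carry no test.

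The remaining 5 genes had the following values. Efemp1, lower in the same group, had 0.25 with Fbln5 and 0.09 with Mfap4 within groups, and -0.20 and -0.19 without C9. Mfap2 and Mfap5, the MAGP pair, had 0.53 with each other (Spearman 0.52, and 0.71 without C9), while Mfap2 had -0.13 with Fbln5. Eln had 0.57 with Fbln1 (Spearman 0.52) and 0.55 with Fbln5 (Spearman 0.56), but 0.22 with Mfap2 (Spearman 0.15). The correlation of 0.55 between Fbln2 and Fbln5 rested on C9, without which it was 0.10. Against the mean of 9 markers of adventitial and CD34-positive fibroblasts, Mfap5 had 0.72 (Spearman 0.74, and 0.66 without C9), Mfap2 0.50 (0.67 without C9) and Efemp1 0.46 (0.30 without C9). The other 6 genes had between 0.04 for Eln and 0.31 for Fbln2, and without C9 between -0.21 for Thsd4 and 0.03 for Fbln1.

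**Figure D4:**
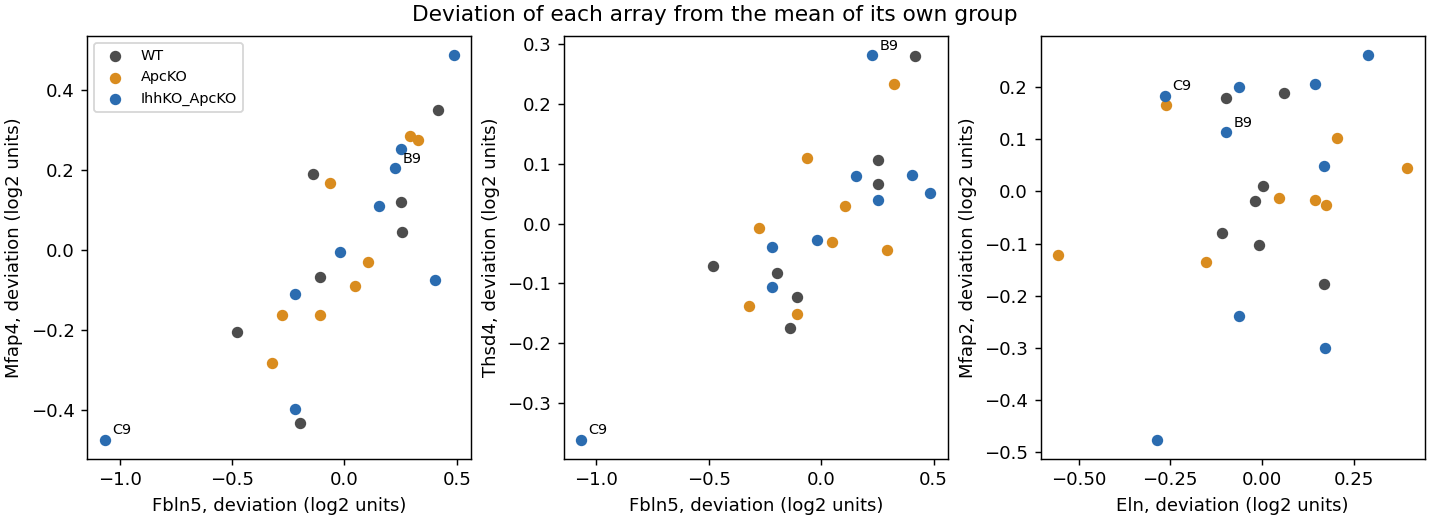
Each point is 1 array, placed by its deviation from its own group mean in log2 units for the gene on each axis, and coloured by group. The cloud of Fbln5 against Mfap4 is narrow, that of Fbln5 against Thsd4 is narrow with C9 at its far end, and that of Eln against Mfap2 is wide.

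Among 15412 genes above the median gene, those whose deviations most resembled Eln over the 24 arrays were Plxnd1, a semaphorin receptor (Pearson 0.86), Capn5, a calpain protease (0.82), Arpin (0.82), Pdgfd, a platelet-derived growth factor (0.81), and Efcc1 (0.81). For Thsd4 they were Cnn2, a calponin (0.80), Zfp57, a zinc finger protein of imprinting (0.79), Fscn1, an actin-bundling protein (0.79), Fbln5 (0.79) and Tenm3, a teneurin (0.78). Fbln5 was thus the only other elastic fibre gene described here in either list of 5. Without C9 the Thsd4 values became 0.75, 0.77, 0.70, 0.68 and 0.69 in the same order. Without B9 and C9 they became 0.71, 0.73, 0.64, 0.71 and 0.68, so their order depended on these arrays. Those of Eln lay between 0.80 for Pdgfd and 0.88 for Plxnd1 without C9. These likenesses are the highest of many and are given without a test.

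The rest of the elastic fibre pathway was read from 6 lists with 63 genes, of which 56 were measured. Of the 56, 0 passed the limma test in each of the 3 contrasts, and 2, 5 and 10 reached an unadjusted p under 0.05 for the effect of Apc loss, of added Ihh loss and of both together, or 3.57%, 8.93% and 17.9%. The shares over all genes were 4.41%, 4.94% and 7.62% in the same order. In IhhKO_ApcKO minus ApcKO, 34 were lower and 22 higher, with a median of -0.0309. Over all genes 13373 were lower and 17454 higher, with a median of 0.0107.

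By role, the lists differed in sign in IhhKO_ApcKO minus ApcKO, with differences mostly within the spread. Over all 30827 genes 13373 were lower and 17454 higher. The main fibrillin gene, Fbn1, was not analysed here, so of the scaffold itself only Fbn2 was read, at -0.03 (SE 0.0949). Of 5 genes, Fbn2 and the latent TGF-beta binding proteins Ltbp1 to Ltbp4, 4 were lower, from -0.09 for Ltbp4 to 0.01 for Ltbp2, with a median of -0.03. Of 14 other fibulins, emilins and microfibril-associated genes 13 were lower, with a median of -0.08, and 2 reached an unadjusted limma p under 0.05. Emilin3, counted as lower, had a mean of 5.2426 in both groups. Mmrn1 lay below the negative control median on all 24 arrays. The ADAMTS-like and ADAMTS genes of microfibrils, relatives of Thsd4, had 8 of 10 lower and a median of -0.08, with 0 at an unadjusted limma p under 0.05. All 12 elastin-degrading enzymes and their inhibitors were higher, with a median of 0.09, from 0.02 for Timp2 to 0.23 for Timp3, an inhibitor of metalloproteinases bound to the matrix. Only 1 of these 12 reached an unadjusted limma p under 0.05. Mmp7 (4.27 in ApcKO, 4.37 in IhhKO_ApcKO) and Mmp12 (3.11 and 3.32) averaged below 4.65, the median of the negative control probe sets. In IhhKO_ApcKO Mmp12 was at 4.77 on C9 and at 3.37 on the next highest array. Of 11 receptors 7 were lower, with a median of -0.06. Of 4 cross-linking enzymes 2 were higher, Lox and Loxl1.

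Lox, the lysyl oxidase that cross-links tropoelastin, had the largest positive difference of the pathway in this contrast. It ran from 6.81 over a median of 6.92 to 7.05 in ApcKO and from 6.79 on C4 over 7.30 to 7.64 on C9 in IhhKO_ApcKO, so that 8 of 9 arrays lay above every ApcKO array and C4 below all of them. The difference was 0.33 (SE 0.0825, limma adjusted p = 0.219) and passed without C4, at 0.39 (limma adjusted p = 0.0283). Without any other single array, C9 among them, it did not pass. Hmcn1, which encodes the large matrix protein hemicentin-1 of the fibulin family, was at 5.25 ± 0.12 (SD, n = 9) in IhhKO_ApcKO and 5.56 ± 0.17 (SD, n = 8) in ApcKO, a difference of -0.32 (SE 0.0712, limma adjusted p = 0.14), with 8 of 9 arrays below every ApcKO array. Mfap3l differed by -0.38 (SE 0.0908, limma adjusted p = 0.167), with 9 of 9 arrays below the ApcKO mean and 5 below every ApcKO array. The group means of Lox, Hmcn1 and Mfap3l all lay below 8.21, the 95th percentile of the negative control probe sets. Those of Hmcn1 were the nearest to the negative control median of 4.65.

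**Figure D5:**
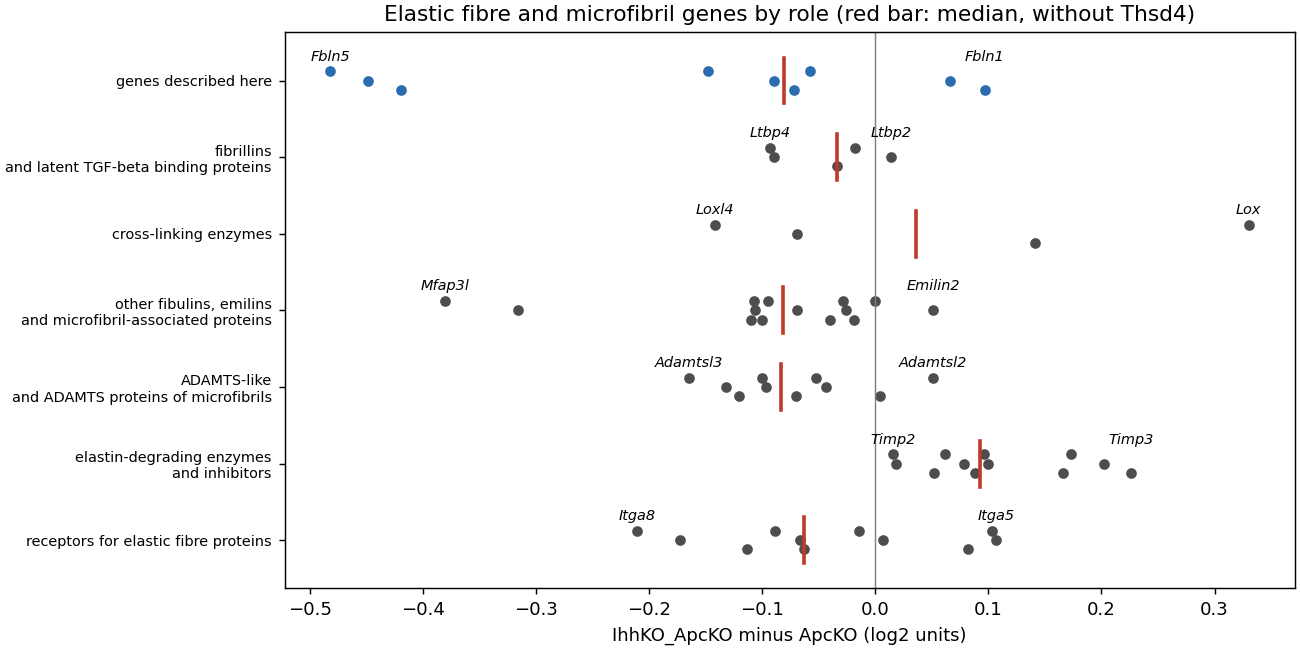
Differences of IhhKO_ApcKO minus ApcKO in log2 units on the horizontal axis, a point for each gene, with rows for the 9 genes described here and the 6 pathway lists, a red bar at each median (without Thsd4 in the top row), and names at both ends of each row. All 12 degrading enzymes and inhibitors lie right of 0, among them Mmp7 and Mmp12, which averaged below the negative control median. Most of the 14 other fibulins, emilins and microfibril-associated genes lie left of 0.

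The remaining pathway genes with the smallest p in each contrast did not pass. In IhhKO_ApcKO minus ApcKO these were Timp3 at 0.23 (SE 0.0788), Itga8, an integrin subunit, at -0.21 (SE 0.09) and Loxl1, a lysyl oxidase that binds Fbln5, at 0.14 (SE 0.0695), with limma adjusted p of 0.664, 0.919 and 1.00. In IhhKO_ApcKO minus WT they were Mfap3l at -0.45 (SE 0.0941), Hmcn1 at -0.35 (SE 0.0739), Lox at 0.38 (SE 0.0856), Fbln7 at -0.37 (SE 0.0913), Itga8 at -0.33 (SE 0.0933) and Fmod, a collagen-binding proteoglycan, at -0.27. Their limma adjusted p ran from 0.0613 for Mfap3l and 0.0681 for Hmcn1 to 0.441 for Fmod. In ApcKO minus WT they were Fbln7 at -0.28, the gelatinase Mmp9 at -0.12, the cathepsin Ctss at 0.58, the integrin subunits Itgb8 at -0.19 and Itgb3 at 0.18, and Fmod at -0.17, each with a limma adjusted p of 0.97. Of the genes named in this paragraph only Timp3 and Loxl1 had group means above 8.21, the 95th percentile of the negative control probe sets.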

How the data were processed

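RNA of 24 samples in 3 groups (7 WT, 8 ApcKO, 9 IhhKO_ApcKO) was measured, grouped by the genotype in the titles. The authors deposited log2 values per probe set made with RMA (background correction, quantile normalization and summary), per the submitters' processing notes, while for the software version and the genome build the entry is: not given in the sources used here. Of 72688 probe sets, 6732 controls were left out and 31388 had 1 gene symbol in the platform annotation (827 updated through Entrez identifiers). The brightest stood for each of 30827 genes, with no filter on dim genes. Array medians lay between 4.963 and 5.141.

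Groups were compared in R 4.3.3 by limma 3.58.1, with lmFit, then eBayes, on all 24 arrays together (Benjamini-Hochberg over all genes, threshold 0.05), a fit first tested on simulated data. Exact two-sided permutation tests over arrays were added for single genes, except Thsd4. The genes, lists and tests were chosen with earlier results of these data known. Pathway genes are named where they passed or were among the 6 with the smallest p of a contrast. Likenesses are Pearson correlations of deviations from group means, which were taken again where arrays were left out. Alternatives were other scalings, a filter, array weights, another variance model, covariates and leaving out arrays.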

Additional observations from a re-analysis of the deposited data

Results flagged for a closer look

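In the group of 9 IhhKO_ApcKO arrays, C9 lay far from the others for 2 genes. Fbln2 was at 9.159 on C9, where the nearest array was at 9.613, and Fbln5 was at 7.532, where the nearest was at 8.379. In both cases the gap was a larger part of the group's whole range than Dixon's 95% limit for 9 samples. These were 2 of 27 combinations of gene and group checked, and chance alone gives about 1 in 20. C9 was also the lowest of its group for Efemp1, Mfap4, Mfap5 and Thsd4, but not beyond that limit. Its antigenomic background and its epithelial, leukocyte and blood endothelial markers were the highest of the 24 arrays. The epithelial mean was nearly as high on A9 (8.09), and the leukocyte mean on B9 (5.34). The part of background and markers in the low values of C9 was not tested.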

How the results depend on the processing

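The count of the 8 tested genes past the adjusted threshold stayed at 0 in the 3 contrasts under each setting in which it was computed. In IhhKO_ApcKO minus ApcKO the differences of Fbln5, Efemp1, Mfap4 and Thsd4 stayed negative under each of them, between -0.5424 and -0.2746, -0.1666 and -0.0652, -0.5095 and -0.285, and -0.4546 and -0.1576, the last value with the letter of the sample code as a block. That letter ran almost along with genotype, so the block compares B9 alone with ApcKO and A9 alone with WT. B9 had its Hedgehog targets at the level of the Ihh-intact arrays, so a sign kept there is no check on the difference with Ihh loss. The cause of the shifts with the block was not tested. With it, ApcKO minus WT kept its sign but became -0.6105 for Eln, and became -0.2101 for Fbln1, -0.2362 for Fbln2, -0.2451 for Fbln5, -0.1612 for Mfap4 and -0.0016 for Thsd4, IhhKO_ApcKO minus ApcKO became -0.1112 for Eln, -0.2571 for Fbln1, 0.0392 for Mfap2 and 0.1155 for Mfap5, and IhhKO_ApcKO minus WT became -0.7218 for Eln and -0.4673 for Fbln1. Differences near 0 also changed sign. Fbln2 in IhhKO_ApcKO minus WT was 0.0217 with median centring, 0.047 with array weights, 0.0089 with the epithelial and 0.064 with the smooth muscle mean as covariate, and 0.0569 without B9 and C9, and in IhhKO_ApcKO minus ApcKO 0.0204 with the smooth muscle mean. Eln in IhhKO_ApcKO minus WT was -0.0142 after repeated quantile normalization, and in ApcKO minus WT 0.0012 with array weights. Leaving out 1 array at a time moved Eln between -0.1113 and 0.0248 (ApcKO minus WT), -0.0133 and 0.1227 (IhhKO_ApcKO minus ApcKO) and -0.0245 and 0.0474 (IhhKO_ApcKO minus WT), Fbln2 between -0.0371 and 0.0575 (IhhKO_ApcKO minus WT), Fbln5 between -0.0047 and 0.1449 (ApcKO minus WT) and Mfap2 between -0.0899 and 0.0021 (IhhKO_ApcKO minus ApcKO). The count of pathway genes past the threshold in IhhKO_ApcKO minus ApcKO rose from 0 to 2 with array weights (Hmcn1 and Mfap3l). In IhhKO_ApcKO minus WT it rose from 0 to 1 with array weights, with only genes above the median gene, and without B9 and C9 (Mfap3l each time). With 1 array left out it ranged from 0 to 2 in IhhKO_ApcKO minus WT (without B9, Hmcn1 and Mfap3l, and 1 gene without A1, A2, B1 or C4) and from 0 to 1 in IhhKO_ApcKO minus ApcKO (without C4, Lox). No paired analysis was possible because the groups share no sample code. The settings without B9 and C9 together and with the smooth muscle, adventitial and negative control means were chosen after seeing the data.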
